A study of Mus musculus with 24 samples.

Results

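The mesenchymal and hematopoietic cells of bone marrow stromal cultures were compared within mice that carry the cherubism-model knock-in on both copies of Sh3bp2, given in the labels as Sh3bp2KI/KI. Every sample titled CBM Mesenchymal (6 samples) or CBM Hematopoietic (6 samples) was taken, 12 of the 24 samples of the series, with every gene of their count tables. No measured value entered the choice. All 12 came from bone marrow of female C57BL/6 mice aged 6 to 8 weeks, grown as stromal cultures for 7 days in MEM-alpha medium with 10% serum and 1% penicillin-streptomycin and no other stated agent. Before RNA extraction the cells were sorted on 2 surface proteins, CD45, which leukocytes carry, and Sca1. Cells with both proteins were taken as hematopoietic, and cells with Sca1 but not CD45 as mesenchymal, so cells without Sca1 belong to neither group by the labels. Both groups carry the knock-in, and a difference between them is a difference between cell populations of that genotype. The other 12 samples are the same 2 populations from wild type cultures, and they entered only the closing comparison with wild type. In the file names 5 hematopoietic and 5 mesenchymal samples share a culture name. No label says whether replicates came from separate mice or cultures, so the p-values measure the spread between these samples, which may be technical in part. In sorted bulk RNA, fewer cells of a type and less RNA per cell cannot be told apart.

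SH3BP2 is an adaptor that carries signals from surface receptors of immune cells to their kinases. Inherited changes of the protein lead to cherubism, a disease of the growing jaw with inflamed, macrophage-rich lesions and many osteoclasts. Osteoclasts and macrophages descend from hematopoietic precursors that need secreted proteins from neighbouring cells, above all M-CSF and RANKL from marrow stromal cells and osteoblasts. A ligand transcript in one population and its receptor transcript in its neighbour is the arrangement by which such exchange works, although a transcript does not show how much protein was made or bound.

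Values per sample are CPM, the counts of a gene relative to the scaled total of its library, given as mean ± SD over the 6 samples of a group. The 12 libraries held 11649782 to 15826711 counts. Differences are log2 ratios of mesenchymal over hematopoietic samples from edgeR's quasi-likelihood fit with a term for a file-name prefix, each with its standard error (SE). The prefix takes 2 values, called prefix groups 1 and 2 here, and the labels do not say what it marks. A gene was placed on the mesenchymal or the hematopoietic side when edgeR's glmTreat found a difference beyond 2-fold at an adjusted p threshold of 0.05, and the adjusted p beside a single gene is from that test unless stated. Tested genes on neither side are called unplaced, which does not show that their levels were equal.

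Sh3bp2 itself was measured at 183 to 284 CPM (median 224) in the hematopoietic samples. Its level in the mesenchymal samples was 6.25 to 8.90 CPM (median 7.68). The groups did not overlap, and the log2 difference was -4.92, SE 0.13, adjusted p = 3.67e-11. In every mesenchymal sample the ratio of Sh3bp2 to its hematopoietic mean was above 2 times the leukocyte marker level described after it. The count tables do not say which part of the gene the knock-in changes, so these counts do not check the genotype.

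The sort was checked on marker genes. Ptprc, which encodes CD45, was at 670.1 to 871 CPM (median 714) in hematopoietic samples and at 0.794 to 5.93 CPM (median 3.37) in mesenchymal samples, with a log2 difference of -7.87, SE 0.40, adjusted p = 5.11e-09. Ly6a, which encodes the Sca1 protein that both groups were sorted on, was low in both, at 10.5 ± 3.52 CPM in hematopoietic and 11.1 ± 4.11 in mesenchymal samples. Its log2 difference was 0.09, SE 0.28, with an edgeR quasi-likelihood adjusted p of 0.782. Reads shared with close relatives of Ly6a may have been lost in the counting. Of 24 macrophage and monocyte markers 23 were tested and all 23 lay on the hematopoietic side, among them Lyz2 (14989.6 ± 3011 CPM in hematopoietic and 48.9 ± 28.5 in mesenchymal samples) and Csf1r. The macrophage marker Itgam was listed at 0 in all 24 samples and is overlapped on its own strand by another annotated gene, so its 0 is not read as absence. All 14 osteoclast markers were tested and 13 were on the hematopoietic side, with Ctsk, the collagen-cutting cathepsin of resorbing cells, at 1508 ± 753 CPM in hematopoietic and 86.6 ± 42.9 in mesenchymal samples. Of 24 stromal markers 21 were on the mesenchymal side and 0 on the hematopoietic side, and of 12 pericyte and smooth muscle markers 11 were on the mesenchymal side. None of 10 erythroid markers with an identifier passed the filter on low counts. Of 10 tested endothelial markers 4 were on the mesenchymal side, 1 on the hematopoietic side and 5 unplaced, so the list as a whole pointed to neither population. Cdh5, the junction cadherin of vessels, was among the mesenchymal ones at 21.2 ± 13.5 CPM in mesenchymal samples. Of 7 tested neutrophil markers 6 were on the hematopoietic side, but the list of 12 summed to only 46.3 to 99.6 CPM there. The macrophage and monocyte list summed to 22219.5 to 31098 CPM in the same samples. Of 3 tested mast cell and basophil markers 2 were on the mesenchymal side and 0 on the hematopoietic side, at a list sum of at most 16.2 CPM in any sample. Of 6 tested adipocyte markers 1 was mesenchymal, 2 were hematopoietic and 3 unplaced.

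Each population carried RNA counted to the markers of its neighbour. Taken over 21 stromal markers, the median ratio of a hematopoietic sample to the mesenchymal mean was 9.89, 7.74, 23.8, 9.58, 10.8 and 4.84% in hematopoietic replicates 1 to 6. Replicate 3 stood above the rest and replicate 6 was lowest. Summed over the whole list of 24, stromal markers made 2376 to 13953 CPM in hematopoietic and 37359 to 72067 CPM in mesenchymal samples, and none was at 0 in any of the 12 samples. Vcam1, an adhesion protein that macrophages also make, was the stromal marker that went against its name, at 110.8 ± 78.6 CPM in hematopoietic and 56.4 ± 10.1 in mesenchymal samples. Over 16 leukocyte markers, the same ratio in mesenchymal replicates 1 to 6 was 0.386, 0.366, 1.09, 0.925, 0.920 and 0.155% of the hematopoietic mean. The summed leukocyte markers made 4325 to 5009 CPM in hematopoietic and 78.0 to 119.9 CPM in mesenchymal samples. Of the 16 leukocyte markers 5 were at 0 in 1 or more mesenchymal samples, with Cd52 at 0 in 4 of 6, and none was at 0 in all 6. Lsp1, a cytoskeletal protein of leukocytes, was the exception at 22.96 ± 9.93 and 62.8 ± 10.1 CPM, and lay on the mesenchymal side with the culture name as a block (log2 difference 1.80). The means of the 2 levels were 11.1 ± 6.58% and 0.640 ± 0.383%, which are log2 ratios of -3.17 and -7.29. The level of stromal markers in hematopoietic samples was the larger. Of the 2172 genes on the mesenchymal side, 1236 (56.9%) had their highest hematopoietic value in replicate 3, and 67 were above 2 times the stromal marker level in 6 of 6 hematopoietic samples. Of the 2305 genes on the hematopoietic side, 1555 were above 2 times the leukocyte marker level in 6 of 6 mesenchymal samples. The part of such RNA in the level of any single gene was not tested. Without hematopoietic replicate 3, the sides beyond 2-fold held 2319 mesenchymal and 2340 hematopoietic genes, and without hematopoietic replicate 6 they held 2258 and 2324.

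**Figure D1:**
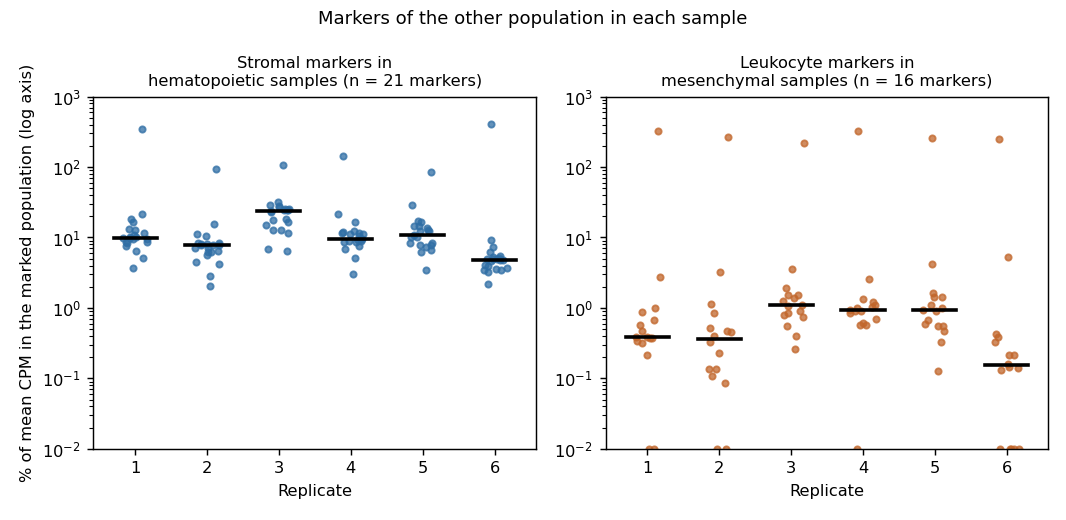
Level of each stromal marker in the 6 hematopoietic samples (left) and of each leukocyte marker in the 6 mesenchymal samples (right), as percent of the mean CPM in the population it marks, on a log axis. Each point is 1 marker in 1 sample, a point at 0 is drawn at the lower edge, and the bar is the median, which is highest in hematopoietic replicate 3 (23.8%) and stays between 0.155 and 1.09% in the mesenchymal samples.

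Most of the measured transcriptome differed between the populations. Of 14211 genes tested, 4796 (33.7%) were higher in mesenchymal and 5484 (38.6%) higher in hematopoietic samples by edgeR's quasi-likelihood test. Beyond 2-fold, 2172 genes (15.3%) lay on the mesenchymal side and 2305 (16.2%) on the hematopoietic side, while 9734 (68.5%) were unplaced. The groups did not overlap for 7540 genes (53.1%). The median log2 difference was 2.79 on the mesenchymal side and -2.77 on the hematopoietic side, but the extremes were unequal: 119 genes passed 4 on the mesenchymal side and 810 passed -4 on the hematopoietic side. The marker levels were unequal too, at log2 ratios of -3.17 for stromal markers in hematopoietic and -7.29 for leukocyte markers in mesenchymal samples. Their part in the unequal extremes was not tested. With upper quartile scaling in place of TMM, the quasi-likelihood calls split as 5699 higher in mesenchymal and 4569 higher in hematopoietic samples. The median difference of all genes moved from -0.06 to 0.10. The balance of these calls, made without the 2-fold margin, thus depends on the scaling.

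Among placed protein-coding genes of 10 CPM or more in the higher population, the 12 largest differences in each direction were taken. Toward the hematopoietic side, Cnr2, the cannabinoid receptor of immune cells, had 1401 counts over the 6 hematopoietic samples and 1 over the mesenchymal samples, a ratio of 1464 (95% counting interval 262 to 57863). Spic, a transcription factor of iron-recycling macrophages, had 1186 against 1 count, a depth-scaled ratio of 1239 with a 95% counting interval of 222 to 48989.5. The 12 also included the proton-sensing receptor gene Gpr65 (-9.44, SE 0.41), the RNA sensors Tlr8 (-9.31, SE 0.33) and Tlr7 (-8.74, SE 0.37), the phosphatase Ptpro (-8.73, SE 0.22) and the SRC-family kinase Fgr (-8.75, SE 0.52). Lyz1 (-8.88, SE 0.59) was among them too, although reads shared with its near copy Lyz2 could have been split. Toward the mesenchymal side, the 12 included Gjb2, a gap junction subunit (5.54, SE 0.58), the lipid droplet gene Plin4 (5.29, SE 0.50), the transcription factors Ebf2 (5.13, SE 0.52) and Ebf3 (4.72, SE 0.27), and the secreted Wnt modulators Sfrp2 (4.99, SE 0.36) and Rspo2 (4.94, SE 0.30). Rspo2, which amplifies Wnt signals, reached 615 ± 264 CPM in mesenchymal and 19.7 ± 7.33 in hematopoietic samples. Col2a1, the cartilage collagen, was uneven among the mesenchymal samples at 42.0 to 779 CPM (median 119.6) against 1.93 to 39.8 CPM (median 2.81) in the hematopoietic samples.

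Sequence before RefSeq transcript starts was compared between the sides with the letters bound by 4 factor families. Spi1, which encodes the myeloid factor PU.1, was itself hematopoietic at 254 ± 27.8 CPM in hematopoietic and 1.17 ± 0.896 in mesenchymal samples. The PU.1 letters GAGGAAGT, read on both strands, were found in 4.45% of 2246 RefSeq promoter windows (250 bases before a start, GRCm38.p6) of hematopoietic-side genes, 1.38% of 2108 windows of mesenchymal-side genes, 2.33% of those of unplaced genes and 2.44% of all 32851 windows. The TEAD letters ACATTCC ran the other way, with 1.65% of hematopoietic-side, 3.80% of mesenchymal-side and 2.24% of unplaced windows, and 3.25% of all windows. The RUNX letters TGTGGTT were in 3.92% of hematopoietic-side, 3.37% of mesenchymal-side and 3.12% of unplaced windows, and 4.40% of all windows. For the AP-1 letters TGANTCA these shares were 7.17, 5.83, 3.71 and 6.75%, so both sides lay above the unplaced windows. All windows include those of genes that were not tested. Among genes on the lists described here, 22 of 266 on the hematopoietic side held the PU.1 letters in a window, and none of 45 ligand or receptor genes did. TEAD letters were in a window of 12 listed genes on the mesenchymal side, including 3 of 79 ligand, receptor or inhibitor genes. A match is a description of letters and not of binding. Windows of 5 genes described in the text are printed 5′ to 3′ on the strand of the gene, because they show where the letters lie in Sh3bp2, in 2 further hematopoietic-side genes (Vav1, an exchange factor that works with SH3BP2, and Hpgds, which makes prostaglandin D) and in 2 mesenchymal-side genes (Col3a1 and Il1r1). Capitals mark the motif: PU.1 in the first 3 and TEAD in the last 2. In Sh3bp2 and Il1r1 the letters lie on the opposite strand and in 1 of 2 windows of the gene. Both of these windows precede an internal start, 23738 bases inside Sh3bp2 and 41506 bases inside Il1r1 as counted from the first annotated base of each gene. The Hpgds start lies 178 bases inside its gene, and those of Vav1 and Col3a1 at the first base.
Sh3bp2, chr5:34549326-34549575, plus strand: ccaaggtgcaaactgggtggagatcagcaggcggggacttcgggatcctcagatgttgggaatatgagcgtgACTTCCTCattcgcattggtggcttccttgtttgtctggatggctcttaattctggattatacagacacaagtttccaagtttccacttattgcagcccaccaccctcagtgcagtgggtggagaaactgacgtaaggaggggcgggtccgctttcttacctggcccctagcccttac
Vav1, chr17:57278850-57279099, plus strand: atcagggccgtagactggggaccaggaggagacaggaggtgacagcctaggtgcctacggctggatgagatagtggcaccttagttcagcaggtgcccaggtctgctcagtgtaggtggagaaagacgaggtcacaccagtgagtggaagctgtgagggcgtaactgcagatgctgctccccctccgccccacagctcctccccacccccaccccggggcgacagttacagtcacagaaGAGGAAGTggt
Hpgds, chr6:65144731-65144980, minus strand: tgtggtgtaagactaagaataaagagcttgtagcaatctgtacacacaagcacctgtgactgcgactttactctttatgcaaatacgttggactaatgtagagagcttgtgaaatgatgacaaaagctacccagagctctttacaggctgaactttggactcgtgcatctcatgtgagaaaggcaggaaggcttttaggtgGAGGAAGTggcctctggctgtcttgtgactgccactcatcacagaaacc
Col3a1, chr1:45311288-45311537, plus strand: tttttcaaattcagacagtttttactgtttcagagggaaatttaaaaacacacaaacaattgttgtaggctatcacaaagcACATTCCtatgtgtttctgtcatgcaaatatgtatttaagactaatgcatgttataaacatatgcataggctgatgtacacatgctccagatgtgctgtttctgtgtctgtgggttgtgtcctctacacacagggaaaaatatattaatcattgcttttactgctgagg
Il1r1, chr1:40266336-40266585, plus strand: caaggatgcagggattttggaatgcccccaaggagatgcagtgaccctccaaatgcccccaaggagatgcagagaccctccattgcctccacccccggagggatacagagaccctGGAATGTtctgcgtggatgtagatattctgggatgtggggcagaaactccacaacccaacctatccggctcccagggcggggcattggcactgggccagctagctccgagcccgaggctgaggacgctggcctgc

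Ligands, receptors and secreted inhibitors of 66 signalling axes (270 genes) were placed next. Of 119 ligand genes 87 were tested: 46 lay on the mesenchymal side, 23 on the hematopoietic side and 18 were unplaced. These sides are 52.9 and 26.4% of the tested ligands, against 15.3 and 16.2% of all genes. Of 131 receptor genes 119 were tested, with 48 on the mesenchymal side, 39 on the hematopoietic side and 32 unplaced. Of 21 secreted inhibitors and decoys 15 were tested, and 12 lay on the mesenchymal side with 0 on the hematopoietic side. The remaining 32 ligand, 12 receptor and 6 inhibitor genes did not pass the filter on low counts. The median log2 difference was 1.79 over tested ligands, 0.09 over tested receptors and 3.40 over tested inhibitors, against -0.06 over all genes. Genes that passed the filter through the higher group alone had to differ, so these counts describe the axes and test nothing. Of 226 ligand and receptor pairs with both genes tested, 27 ran from a mesenchymal ligand to a hematopoietic receptor over 14 axes and 8 from a hematopoietic ligand to a mesenchymal receptor over 7 axes. Both genes were on the mesenchymal side in 81 pairs over 19 axes, and both on the hematopoietic side in 15 pairs over 11 axes. Pairs join every ligand with every receptor of an axis, whether or not the proteins bind. Axes with many members, such as Wnt, therefore weigh most in the counts of pairs, and no expected share was set beside them.

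**Figure D2:**
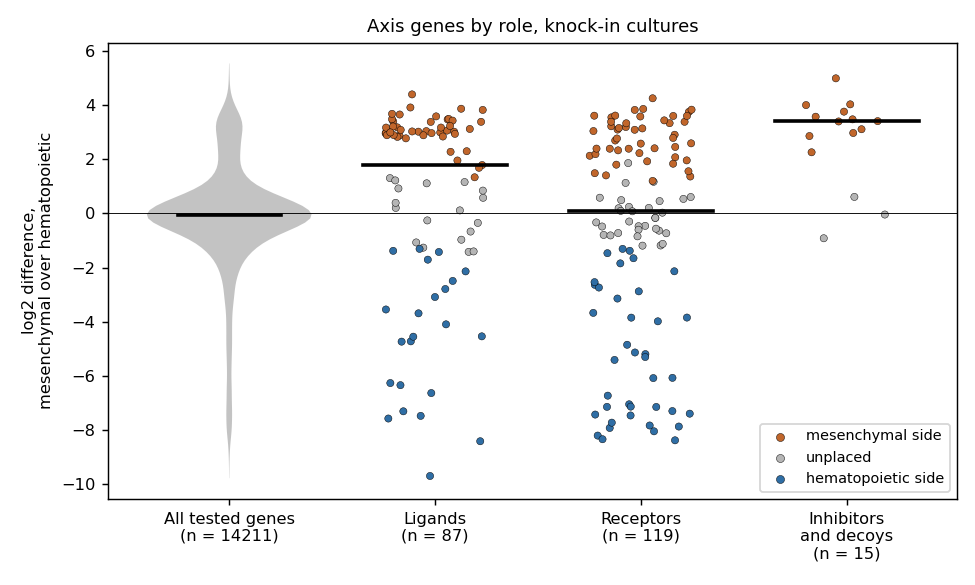
Log2 difference (mesenchymal over hematopoietic) of every tested ligand (87), receptor (119) and inhibitor or decoy (15) of the signalling axes, beside the distribution of all 14211 tested genes. Points are genes coloured by side and bars are medians (1.79, 0.09, 3.40 and -0.06), and all 12 placed inhibitors lie above 0.

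The growth factor axes of osteoclast precursors ran from mesenchymal ligand to hematopoietic receptor. Csf1, which encodes M-CSF, was at 331 to 641 CPM (median 506) in mesenchymal and 23.6 to 69.4 CPM (median 42.8) in hematopoietic samples. Its receptor gene Csf1r was at 1522 to 1724 CPM (median 1565) in hematopoietic and 2.12 to 21.6 CPM (median 12.6) in mesenchymal samples. The groups did not overlap for either gene, with log2 differences of 3.58, SE 0.19, adjusted p = 2.84e-08 for Csf1 and -7.05, SE 0.52, adjusted p = 1.58e-07 for Csf1r. Il34, the other CSF1R ligand, was scarce in both groups (1.34 ± 0.949 CPM in hematopoietic and 2.51 ± 1.32 in mesenchymal samples) and unplaced. Tnfsf11, which encodes RANKL, was at 14.7 to 28.5 CPM (median 19.1) in mesenchymal and 0.847 to 5.15 CPM (median 2.97) in hematopoietic samples. Tnfrsf11a, which encodes its receptor RANK, was at 347 to 493 CPM (median 411) in hematopoietic and 0.293 to 3.65 CPM (median 2.43) in mesenchymal samples. Again no sample of 1 group reached the range of its counterpart (log2 differences 2.88, SE 0.30, adjusted p = 2.54e-05 and -7.43, SE 0.35, adjusted p = 2.30e-09). The decoy receptor that blocks RANKL, osteoprotegerin, is encoded by Tnfrsf11b, which lay on the ligand's side at 117 ± 15.9 CPM in mesenchymal and 7.19 ± 3.89 in hematopoietic samples (4.03, SE 0.30, adjusted p = 3.98e-07). Per kilobase of exon, the mesenchymal level was 95.9 CPM for Csf1, 41.5 for Tnfrsf11b and 8.99 for Tnfsf11, and the hematopoietic level was 277 for Csf1r and 69.4 for Tnfrsf11a. The decoy transcript was thus the more abundant of the pair in the mesenchymal samples on that scale.

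Chemokine genes were divided, where 15.3% of all genes lay on the mesenchymal side, 16.2% on the hematopoietic side and 68.5% on neither. Of 16 tested chemokine genes, 3 lay on the mesenchymal side, 7 on the hematopoietic side and 6 were unplaced. The hematopoietic ones included Cxcl16 (-4.72, SE 0.15), Cxcl2 (-7.48, SE 0.45), Cxcl10 (-2.79, SE 0.56) and the monocyte attractant gene Ccl2 (-2.49, SE 0.42), of which Cxcl10 and Ccl2 were not placed in prefix group 1 alone. The mesenchymal ones were Cxcl12, Cx3cl1 and the neutrophil attractant gene Cxcl5 (3.40, SE 0.52). Cxcl12, the marrow retention chemokine, was at 275 to 406 CPM (median 343) in mesenchymal and 9.65 to 23.4 CPM (median 17.5) in hematopoietic samples. Its receptor gene Cxcr4 was at 59.7 to 148 CPM (median 132) in hematopoietic and 1.26 to 2.12 CPM (median 1.80) in mesenchymal samples. Neither gene's groups overlapped. The log2 difference was 4.40, SE 0.21, adjusted p = 5.02e-09 for Cxcl12 and -6.08, SE 0.25, adjusted p = 1.08e-09 for Cxcr4. The scavenging receptor Ackr3, which removes CXCL12, lay on the mesenchymal side at a low 3.82 ± 1.84 CPM in mesenchymal and 0.619 ± 0.630 in hematopoietic samples, where the groups overlapped. The membrane chemokine Cx3cl1 (22.5 ± 6.68 CPM in mesenchymal and 1.55 ± 0.728 in hematopoietic samples) faced Cx3cr1, a receptor of monocytes and resident macrophages (346 ± 144 CPM in hematopoietic and 3.22 ± 1.28 in mesenchymal samples). Rarres2, which encodes chemerin, was low (2.30 ± 0.786 CPM in mesenchymal samples) against Cmklr1 (164 ± 10.01 CPM in hematopoietic samples). The lymphoid growth factor Il7 was at 10.5 ± 3.32 CPM in mesenchymal samples and its receptor gene Il7r at 25.6 ± 6.63 CPM in hematopoietic samples. Il2rg, which encodes the shared gamma chain needed for that receptor, was listed at 0 in all 24 samples and is not read.

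Some matrix ligands paired with hematopoietic receptors as well. Col3a1, a fibrillar collagen, was at 3749.9 ± 1876 CPM in mesenchymal samples. Lair1, an inhibitory receptor that binds collagen, was at 114 ± 25.5 CPM in hematopoietic and 0.465 ± 0.412 in mesenchymal samples (-7.87, SE 0.35, adjusted p = 1.70e-09). The thrombospondins Thbs1 (14014 ± 1241 CPM) and Thbs2 (2584 ± 566 CPM) were mesenchymal. Cd36, their receptor and a lipid scavenger, was at 373 ± 102 CPM in hematopoietic and 1.76 ± 0.602 in mesenchymal samples. The integrin chain Itga2, a collagen receptor of platelets, was on the hematopoietic side (-2.74, SE 0.42), with groups that overlapped, and was not placed in prefix group 1 alone (log2 difference -2.14). The collagen-binding Itga11 (3.39, SE 0.31), Itga1 (3.04, SE 0.19) and the receptor tyrosine kinases Ddr1 (3.83, SE 0.30) and Ddr2 (3.44, SE 0.22) were on the side of the collagens.

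**Figure D3:**
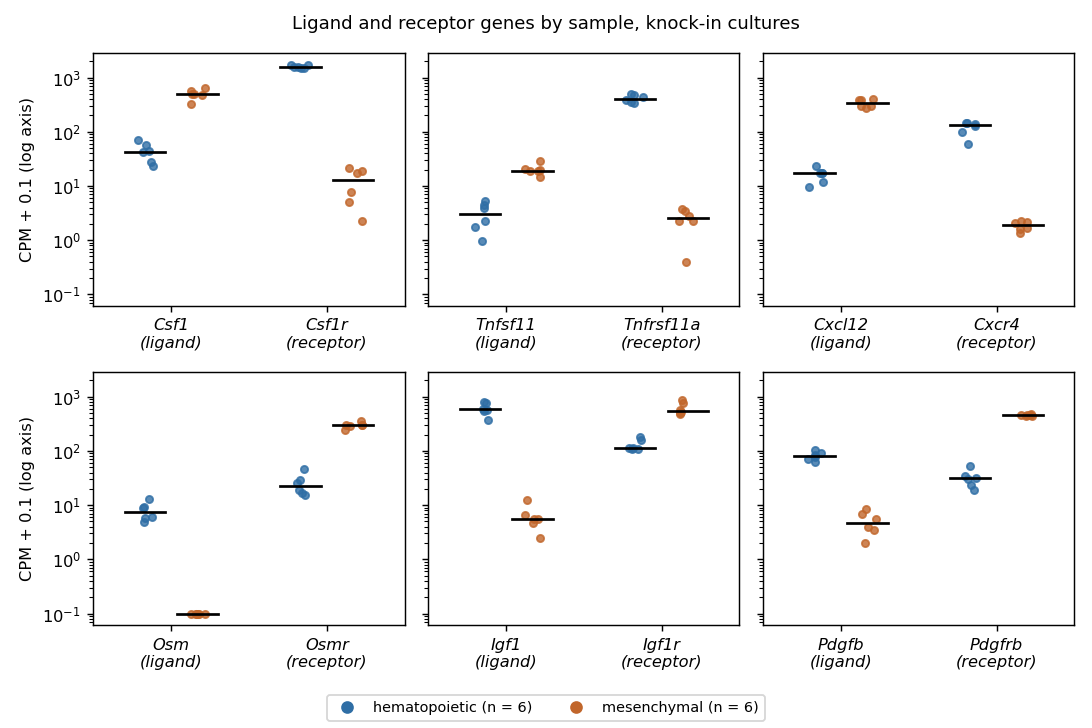
CPM of ligand and receptor genes in each hematopoietic and each mesenchymal sample on a log axis (CPM + 0.1), with pairs side by side: 3 with the ligand on the mesenchymal side (Csf1 and Csf1r, Tnfsf11 and Tnfrsf11a, Cxcl12 and Cxcr4) and 3 with the ligand on the hematopoietic side (Osm and Osmr, Igf1 and Igf1r, Pdgfb and Pdgfrb). Points are samples and bars are medians, and no point of 1 population lies within the range of its counterpart for any of the 12 genes. The genes were drawn from those placed beyond 2-fold, and the groups did not overlap for 53.1% of all 14211 tested genes.

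Fewer axes ran the other way, from hematopoietic ligand to mesenchymal receptor. Osm, which encodes oncostatin M, a cytokine of macrophages, had 614 counts over the 6 hematopoietic samples and 0 over the mesenchymal samples, which makes it at least 214-fold higher when 3 counts are allowed over the mesenchymal group. The hematopoietic samples ranged from 4.77 to 12.8 CPM (median 7.27). Osmr, its receptor gene, was at 248 to 359.6 CPM (median 299) in mesenchymal and 15.2 to 45.6 CPM (median 22.2) in hematopoietic samples (3.61, SE 0.22, adjusted p = 8.15e-08). Il6st, the shared signalling chain of the same receptor, was also on the mesenchymal side (565 ± 93.6 CPM in mesenchymal and 124 ± 19.3 in hematopoietic samples). The groups of both receptor genes stood apart. Igf1, the main local growth factor of bone, was at 380.0 to 797 CPM (median 582) in hematopoietic and 2.41 to 12.3 CPM (median 5.44) in mesenchymal samples (-6.63, SE 0.35, adjusted p = 8.09e-09). Its receptor gene Igf1r was at 480.5 to 887 CPM (median 536) in mesenchymal and 109 to 183 CPM (median 112.2) in hematopoietic samples (2.23, SE 0.13, adjusted p = 3.55e-07). Here too no sample crossed into the range of its counterpart, although the hematopoietic samples kept a sizeable Igf1r level.

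Pdgfb, a growth factor for pericytes and stromal cells, was at 63.6 to 105 CPM (median 80.4) in hematopoietic and 1.94 to 8.39 CPM (median 4.60) in mesenchymal samples (-4.10, SE 0.28, adjusted p = 1.79e-07). Its receptor gene Pdgfrb was at 437 to 486 CPM (median 463) in mesenchymal and 19.3 to 52.6 CPM (median 31.1) in hematopoietic samples (3.86, SE 0.20, adjusted p = 1.72e-08). The PDGF family was divided by ligand: Pdgfc (2.28, SE 0.25) and Pdgfd (3.04, SE 0.31) lay on the mesenchymal side with the receptor gene Pdgfra (3.58, SE 0.27), and Pdgfa was unplaced. Sema4d, an axon guidance protein that osteoclasts use to restrain osteoblasts, was at 384 ± 50.3 CPM in hematopoietic and 4.69 ± 2.24 in mesenchymal samples. Its receptor gene Plxnb1 was at 35.6 ± 2.24 CPM in mesenchymal and 2.98 ± 1.94 in hematopoietic samples. The other receptor gene Plxnb2 was unplaced at 675 ± 83.7 and 376 ± 51.5 CPM. Il1b had 573 counts over the hematopoietic samples and 3 over the mesenchymal samples (a ratio of 199.6, 95% counting interval 67.9 to 971). The signalling receptor gene Il1r1 was at 73.1 ± 9.27 CPM in mesenchymal and 7.93 ± 2.25 in hematopoietic samples. Il1rn, which encodes the secreted antagonist of that receptor, was on the mesenchymal side (124 ± 52.4 CPM in mesenchymal and 25.7 ± 6.30 in hematopoietic samples, 2.26, SE 0.27, adjusted p = 1.83e-04). Tnf was on the hematopoietic side at 22.5 ± 11.6 CPM in hematopoietic and 0.109 ± 0.127 in mesenchymal samples, with Tnfrsf1b also there (-2.64, SE 0.16) and the broadly expressed Tnfrsf1a unplaced at 113 ± 10.5 and 89.5 ± 15.3 CPM.

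Within several families the members were divided between the populations. Of the transforming growth factors, Tgfb1 was hematopoietic (167 ± 24.6 CPM in hematopoietic and 51.5 ± 8.47 in mesenchymal samples), and Tgfb2 (464 ± 85.4 CPM) and Tgfb3 (586 ± 57.9 CPM) were mesenchymal. The kinase receptor gene Tgfbr1 was on the hematopoietic side (-2.88, SE 0.09), the co-receptor gene Tgfbr3 on the mesenchymal side (3.55, SE 0.18), and Tgfbr2 was unplaced. Lrrc32, which encodes a surface protein that holds latent TGF-beta, was among the 12 largest mesenchymal differences (129.6 ± 48.3 CPM in mesenchymal and 5.68 ± 1.47 in hematopoietic samples). Of the receptors for GAS6 and protein S, which recognise dying cells, Mertk was hematopoietic (349.7 ± 66.3 CPM in hematopoietic and 10.1 ± 2.54 in mesenchymal samples) and Axl (1.41, SE 0.17) and Tyro3 (3.09, SE 0.25) were mesenchymal. Both ligand genes, Gas6 and Pros1, were unplaced, although Pros1 was mesenchymal with the culture name as a block (1.28). Notch1 was on the hematopoietic (-1.65, SE 0.12) and Notch3 on the mesenchymal side (3.75, SE 0.35), while Notch2, the most abundant of the 4 receptor genes, and the ligand gene Jag1 were unplaced. The endothelin receptor genes divided into Ednrb (10.8 ± 9.59 CPM in hematopoietic and 0.292 ± 0.310 in mesenchymal samples) and Ednra (16.2 ± 3.44 CPM in mesenchymal and 1.77 ± 0.680 in hematopoietic samples), with the ligand gene Edn1 mesenchymal (3.47, SE 0.43). Of the neuregulin genes, Nrg4 (-3.69, SE 0.37) and the receptor gene Erbb3 (-3.98, SE 0.46) were hematopoietic, and Nrg1 (2.89, SE 0.45) and the receptor gene Erbb2 (3.38, SE 0.18) mesenchymal. For interleukin 6, the ligand-binding chain gene Il6ra was hematopoietic (143 ± 16.8 CPM in hematopoietic and 4.96 ± 1.69 in mesenchymal samples) and the signalling chain gene Il6st mesenchymal. The 2 chains of 1 receptor thus stood on opposite sides. Il6 itself was too low to be tested (189 counts over the mesenchymal and 18 over the hematopoietic samples).

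On the hematopoietic side both ends of several immune axes were found together. C3, the central complement protein, was at 181 ± 74.1 CPM in hematopoietic and 7.78 ± 4.71 in mesenchymal samples. Its receptor gene C3ar1 was at 561 ± 67.4 CPM in hematopoietic and 2.09 ± 1.2003 in mesenchymal samples. The chemokine genes Ccl9 (249 ± 174 CPM) and Ccl6 (27.1 ± 31.6 CPM) were there with the receptor gene Ccr1 (51.0 ± 14.6 CPM). Both ligands varied widely, Ccl6 from 6.17 to 89.7 CPM (median 16.9) and Ccl9 from 145 to 601 CPM (median 191). Icam1 (93.5 ± 23.4 CPM in hematopoietic and 1.22 ± 0.546 in mesenchymal samples) was joined by the leukocyte integrin genes Itgal (150.0 ± 63.8 CPM) and Itgb2 (528 ± 83.4 CPM). Cd47, the signal that protects a cell from being eaten, was hematopoietic by a small margin (-1.31, SE 0.11, adjusted p = 0.00445), and was not placed with upper quartile scaling, with DESeq2 or in prefix group 1 alone. Its receptor gene Sirpa was hematopoietic by a wide margin (1527 ± 176 CPM in hematopoietic and 38.8 ± 10.9 in mesenchymal samples). Hgf (-1.38, SE 0.16, not placed with the culture name as a block at -1.26) and its receptor gene Met (124 ± 45.9 CPM in hematopoietic and 9.81 ± 2.22 in mesenchymal samples) both lay there, as did Grn, a lysosomal growth factor precursor (882 ± 185 CPM in hematopoietic and 104 ± 8.18 in mesenchymal samples), with its uptake receptor gene Sort1 (-2.54, SE 0.16). The growth factor receptor genes Csf2rb (-7.15, SE 0.24), Csf2ra (-3.85, SE 0.19) and Csf3r (-7.83, SE 0.24) were hematopoietic, while their ligand genes were nearly uncounted: Csf2 had 0 counts in all 12 samples and Csf3 had 1 count. Il10ra (201 ± 21.4 CPM in hematopoietic and 0.661 ± 0.459 in mesenchymal samples) was likewise hematopoietic, and its ligand gene Il10 had 103 counts there against 0, at least 35.9-fold higher with 3 counts allowed over the mesenchymal group. The inflammatory chemokine genes Ccl3 (214 counts), Ccl4 (147 counts) and Ccl12 (262 counts) were counted in hematopoietic samples alone, with 0 in each mesenchymal sample, and were too low or uneven to be tested.

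In the FGF, EGF, ephrin-B and SLIT axes every tested ligand and receptor gene lay on the mesenchymal side. The same held for the Kit ligand, LIF and angiopoietin axes, so the receptor gene of Kit ligand was mesenchymal too. Fgf7 (436 ± 151 CPM in mesenchymal and 30.1 ± 13.4 in hematopoietic samples) and Fgf2 (3.82, SE 0.38) lay there with Fgfr1 (2.46, SE 0.18), Fgfr2 (1.49, SE 0.11) and Fgfr3 (2.91, SE 0.52). The EGF receptor gene Egfr (362 ± 48.6 CPM in mesenchymal and 52.7 ± 13.6 in hematopoietic samples) had its ligand genes Hbegf (3.02, SE 0.23) and Ereg (3.18, SE 0.42) on the same side, with Areg and Tgfa too low to test. Both ephrin-B ligand genes and all 4 Ephb receptor genes tested were mesenchymal, from Ephb6 (1.56, SE 0.26) to Ephb4 (3.60, SE 0.19). Slit2 (409.9 ± 105 CPM in mesenchymal and 39.4 ± 14.1 in hematopoietic samples) and Slit3 (3.12, SE 0.21) stood with Robo1 (3.14, SE 0.24) and Robo2 (1.80, SE 0.35, not placed with the culture name as a block at 1.61). The activin subunit genes Inhba (809 ± 65.1 CPM in mesenchymal and 121 ± 50.01 in hematopoietic samples) and Inhbb (3.04, SE 0.21) were mesenchymal together with follistatin, their inhibitor (Fst, 3.11, SE 0.49), while the receptor gene Acvr2b was on the hematopoietic side (-1.47, SE 0.19) and Acvr1b and Acvr2a were unplaced. With the culture name as a block Acvr1b was hematopoietic (-1.27).

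In the Wnt and BMP axes, all placed ligand and inhibitor genes were mesenchymal. Of 5 Wnt ligand genes 4 were tested and all 4 were mesenchymal. Wnt5a was at 101 ± 26.4 CPM in mesenchymal and 11.002 ± 6.78 in hematopoietic samples, and Wnt10b at 21.6 ± 2.61 CPM in mesenchymal and 1.92 ± 0.418 in hematopoietic samples. All 6 frizzled genes tested were mesenchymal, as were the alternative receptor genes Ror1 (4.25, SE 0.27) and Ror2 (3.61, SE 0.26), whereas the co-receptor genes Lrp5 and Lrp6 were unplaced. The secreted inhibitors Sfrp1 (4.0, SE 0.40), Sfrp2, Sfrp4 (2.86, SE 0.36) and Dkk3 (572 ± 53.2 CPM in mesenchymal and 48.9 ± 22.5 in hematopoietic samples) were mesenchymal, Dkk2 was unplaced (-0.04, SE 0.31), and Dkk1 had 1 count in all. Bmp4 (2.96, SE 0.45) and Bmp6 (3.48, SE 0.51) were mesenchymal at low levels, 7.74 ± 3.60 and 5.74 ± 2.57 CPM, and Bmp2 was unplaced (-1.26, SE 0.43). The antagonist gene Grem1 stood at 137 ± 64.4 CPM. Per kilobase of exon the mesenchymal levels were 33.1 CPM for Grem1, 3.44 for Bmp4 and 1.47 for Bmp6. The receptor genes Bmpr1a (3.33, SE 0.22) and Bmpr1b (2.33, SE 0.33) were mesenchymal and Bmpr2 was unplaced.

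Receptors of immune recognition were almost entirely hematopoietic, against 16.2% of all genes on that side. Here and in every gene list, markers included, genes that passed the filter through the higher group alone had to differ. The counts and medians of the lists therefore describe their members and test nothing. All 15 tested genes of 16 Fc and ITAM-coupled receptors were on the hematopoietic side, with a median log2 difference of -7.64 against -0.06 over all genes. Among them were the signalling adaptors Tyrobp (121 ± 12.7 CPM in hematopoietic and 0.467 ± 0.263 in mesenchymal samples) and Fcer1g (118 ± 25.8 CPM in hematopoietic and 2.65 ± 0.979 in mesenchymal samples). The receptors Trem2 (153 ± 13.5 CPM) and Clec5a (82.2 ± 11.96 CPM), which pair with Tyrobp, were on that side too. All 14 tested of 16 inhibitory receptors were there as well (median -7.36), for example Pirb (-8.18, SE 0.38), whose near-identical relatives make its count uncertain, and Clec12a (-7.94, SE 0.29). Of 22 pattern recognition receptors 17 were hematopoietic (median -6.44), led by Tlr8, Tlr7 and Clec4e (-8.55, SE 0.58), and 5 were unplaced, among them Tlr3 (14.4 ± 3.61 and 7.97 ± 2.05 CPM) and Nod1 (29.6 ± 7.80 and 15.8 ± 2.27 CPM). The adaptors and kinases that work beside SH3BP2 followed: 19 of 25 tested lay on the hematopoietic side and 2 on the mesenchymal side. Blnk (-8.19, SE 0.34), Vav1 (-8.03, SE 0.31), Card9 (-7.37, SE 0.18) and the phosphatase gene Ptpn6 (-7.34, SE 0.26) had differences beyond -7, whereas Src (128 ± 29.8 and 109 ± 7.68 CPM) and Vav2 were unplaced. Of the complement receptors and surface regulators 7 of 10 tested were hematopoietic, with C5ar1 at 65.9 ± 19.4 CPM in hematopoietic and 0.267 ± 0.223 in mesenchymal samples.

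Complement and scavenging genes followed the same direction with exceptions inside the complement cascade. Of 11 tested complement components 6 were hematopoietic and 2 mesenchymal, against 16.2 and 15.3% of all genes. The recognition subunits C1qa (289 ± 85.1 CPM in hematopoietic and 1.31 ± 1.01 in mesenchymal samples), C1qb (-8.16, SE 0.44) and C1qc (-7.91, SE 0.54) were hematopoietic, whereas C1s1, which encodes the protease that acts with them, was mesenchymal at 10.8 ± 1.49 CPM in mesenchymal and 2.28 ± 0.651 in hematopoietic samples. C1ra, its partner protease gene, was unplaced at 6.93 ± 1.34 and 14.1 ± 2.05 CPM. The protease gene of the lectin pathway, Masp1, was mesenchymal as well (50.4 ± 12.1 CPM in mesenchymal and 3.82 ± 1.71 in hematopoietic samples), and Cfp, which stabilises the alternative pathway, hematopoietic (-5.23, SE 0.24). Of 20 tested scavenger and phagocytic receptors 12 were hematopoietic and 3 mesenchymal. Msr1 (817 ± 153 CPM in hematopoietic and 2.75 ± 1.51 in mesenchymal samples), the mannose receptor gene Mrc1 (820.2 ± 178 CPM in hematopoietic and 4.11 ± 2.21 in mesenchymal samples) and Stab1, which clears hyaluronan (1488 ± 424 CPM in hematopoietic and 15.98 ± 5.92 in mesenchymal samples), led them, while the collectin receptor gene Colec12 was unplaced at 612 ± 148 and 435 ± 70.1 CPM.

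**Figure D4:**
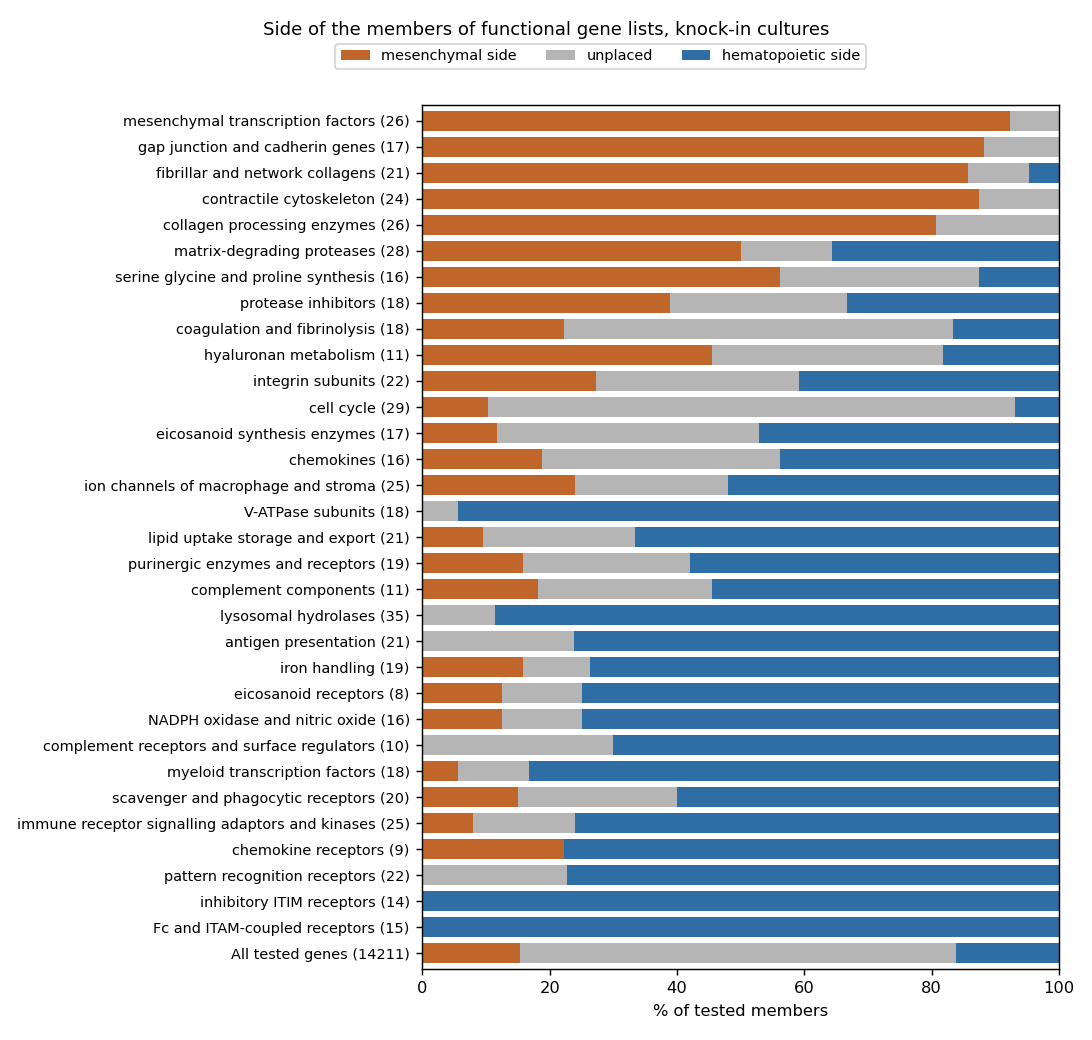
Percent of the tested members of each functional gene list that lay on the mesenchymal side, on neither side or on the hematopoietic side, with the number tested beside the name. Lists are ordered by their median log2 difference, and the bottom bar gives the same shares over all 14211 tested genes (15.3, 68.5 and 16.2%).

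Collagen genes were mesenchymal, and genes of matrix-digesting enzymes were divided between the populations. Over all genes 15.3% lay on the mesenchymal and 16.2% on the hematopoietic side. Of 21 tested collagen genes 18 were mesenchymal (median log2 difference 3.17), including Col1a1 (18349.5 ± 6496 CPM in mesenchymal and 2283 ± 1481 in hematopoietic samples), Col12a1 (6261 ± 1431 CPM in mesenchymal and 544 ± 299 in hematopoietic samples) and the basement membrane pair Col4a1 (4.44, SE 0.24) and Col4a2 (4.34, SE 0.26). The hematopoietic samples held 678 to 4966 CPM (median 1972) of Col1a1, beside a stromal marker level whose log2 ratio was -3.17, and the part of that level was not tested. Of 26 collagen processing enzymes 21 were mesenchymal and none hematopoietic, such as Serpinh1, the collagen chaperone (3.32, SE 0.35), Tll1 (4.07, SE 0.25) and Loxl1 (3.54, SE 0.29), while P4ha1, Plod1 and Ppib were unplaced. Matrix-degrading proteases were divided, with 14 of 28 tested on the mesenchymal and 10 on the hematopoietic side. Mmp17 (4.34, SE 0.21), Mmp2 (415 ± 114 CPM in mesenchymal and 67.6 ± 36.4 in hematopoietic samples) and the plasminogen activator gene Plat (2.52, SE 0.36) were mesenchymal. Mmp9, the gelatinase of osteoclasts and neutrophils (905 ± 390.3 CPM in hematopoietic and 18.4 ± 9.52 in mesenchymal samples), Mmp12 (-6.78, SE 0.64), Ctsk (-4.15, SE 0.47) and Ctss (1912 ± 311 CPM in hematopoietic and 7.03 ± 3.69 in mesenchymal samples) were hematopoietic. Mmp14, a membrane collagenase, was unplaced at 655 ± 102 and 708 ± 132 CPM. Inhibitors were divided likewise (7 mesenchymal and 6 hematopoietic of 18 tested), with Timp3 (3286 ± 441 CPM in mesenchymal and 382 ± 188 in hematopoietic samples) mesenchymal and Serpinb8 (-7.11, SE 0.20) and Spint1 (-6.88, SE 0.48) hematopoietic.

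Genes of acid digestion lay on the hematopoietic side, which held 16.2% of all genes. Of 35 lysosomal hydrolase genes 31 lay there and none on the mesenchymal side (median -2.26), and of 18 tested subunits of the V-ATPase, the proton pump of lysosomes and of the osteoclast border, 17 did (median -1.94). The osteoclast-type subunits Atp6v0d2 (612 ± 150.4 CPM in hematopoietic and 7.28 ± 5.83 in mesenchymal samples) and Tcirg1 (335 ± 43.8 CPM in hematopoietic and 29.9 ± 4.87 in mesenchymal samples) showed larger differences than Atp6v1h (-1.30, SE 0.1) or Atp6v0d1 (-1.22, SE 0.07), and Atp6v0a2 was unplaced. Acp5, the phosphatase used to stain osteoclasts, was at 442 to 963 CPM (median 803) in hematopoietic and 2.71 to 21.8 CPM (median 11.2) in mesenchymal samples. Of the fusion genes of osteoclasts, Dcstamp was at 28.2 ± 13.4 CPM in hematopoietic and 0.495 ± 0.524 in mesenchymal samples and Ocstamp at 37.4 ± 11.7 CPM in hematopoietic and 0.405 ± 0.438 in mesenchymal samples. Nfatc1, the transcription factor that drives osteoclast maturation, was hematopoietic with a substantial mesenchymal level (609 ± 171 CPM in hematopoietic and 181 ± 43.5 in mesenchymal samples, -1.75, SE 0.21, adjusted p = 0.00123), and Calcr, the calcitonin receptor gene, was uneven at 6.19 to 40.4 CPM (median 10.2). Of 16 tested genes for reactive oxygen and nitric oxide, 12 were hematopoietic, with the phagocyte oxidase genes Cybb (1058 ± 309 CPM in hematopoietic and 4.003 ± 2.86 in mesenchymal samples) and Ncf1 (-7.89, SE 0.30).

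Small-molecule handling was also divided, where 15.3% of all genes lay on the mesenchymal and 16.2% on the hematopoietic side. Iron genes were mostly hematopoietic (14 of 19 tested). They included the phagosome iron carrier gene Slc11a1 (280.2 ± 21.3 CPM in hematopoietic and 1.10 ± 0.673 in mesenchymal samples), the ferritin gene Fth1 (1701 ± 164 CPM in hematopoietic and 141 ± 29.4 in mesenchymal samples, with reads possibly lost to its pseudogenes) and the iron exporter gene Slc40a1, which ranged from 36.7 to 226 CPM (median 55.7). Lipid uptake and export genes followed (14 of 21). Abca1, the cholesterol exporter, was at 1274 ± 176 CPM in hematopoietic and 40.5 ± 17.6 in mesenchymal samples. Apoe was at 371 ± 157 CPM in hematopoietic and 4.16 ± 0.931 in mesenchymal samples, and Lpl, which frees fatty acids, at 328 ± 162 CPM in hematopoietic and 35.1 ± 15.3 in mesenchymal samples. For eicosanoids, 8 of 17 tested synthesis enzymes and 6 of 8 tested receptors were hematopoietic, including the leukotriene genes Alox5ap (-8.11, SE 0.27) and Alox5 (-5.48, SE 0.46), Hpgds (-7.53, SE 0.29) and the receptor genes Cysltr1 (-7.82, SE 0.41) and Ptger4 (-1.37, SE 0.13). Nucleotide signalling was hematopoietic in 11 of 19 tested genes: Entpd1, which degrades extracellular ATP (157 ± 49.7 CPM in hematopoietic and 3.22 ± 1.301 in mesenchymal samples), stood with the receptor genes P2ry6 (-7.77, SE 0.33), P2ry12 (-7.85, SE 0.56) and P2rx7 (-4.43, SE 0.15), while Nt5e, which completes the conversion to adenosine, was unplaced at 26.5 ± 10.02 and 16.6 ± 9.35 CPM. Serine and proline synthesis leaned to the mesenchymal side (9 of 16 tested, 2 hematopoietic). Phgdh, the entry enzyme of serine synthesis, was at 116 ± 11.9 CPM in mesenchymal and 9.24 ± 4.44 in hematopoietic samples, and Pycr1 (3.14, SE 0.28) and Asns (2.71, SE 0.21) went with it. The glutamine synthetase gene Glul went against them (238 ± 31.3 CPM in hematopoietic and 14.8 ± 1.76 in mesenchymal samples). Hyaluronan was mesenchymal in its synthase gene Has2 (216 ± 36.9 CPM in mesenchymal and 25.1 ± 15.4 in hematopoietic samples) and its degrading protein gene Cemip (888 ± 269 CPM in mesenchymal and 84.5 ± 36.4 in hematopoietic samples). The receptor gene Cd44 was unplaced at 738 ± 129 and 501 ± 54.1 CPM.

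Adhesion and shape separated the populations too, beside 15.3% of all genes on the mesenchymal and 16.2% on the hematopoietic side. Of 24 contractile cytoskeleton genes 21 were mesenchymal and none hematopoietic. Acta2, smooth muscle actin, was at 3906 ± 332 CPM in mesenchymal and 315 ± 132 in hematopoietic samples. Mylk, a myosin kinase, was at 396 ± 18.1 CPM in mesenchymal and 20.8 ± 7.18 in hematopoietic samples. Of 17 tested gap junction and cadherin genes 15 were mesenchymal, with Cdh2 (3.34, SE 0.22), Gjc1 (3.80, SE 0.20) and Gja1 (2.46, SE 0.32). Integrin subunits were divided (6 mesenchymal, 9 hematopoietic and 7 unplaced of 22 tested): Itga3, a laminin receptor chain (3.74, SE 0.25), was mesenchymal, Itga4 (-7.13, SE 0.24), Itga6 (-5.84, SE 0.36) and Itgax (-7.20, SE 0.32) hematopoietic, and Itgav (1032 ± 79.9 and 625 ± 32.5 CPM) unplaced. Among transcription factors, 24 of 26 tested mesenchymal factors lay on the mesenchymal and 15 of 18 tested myeloid factors on the hematopoietic side. Ebf1 (748 ± 362 CPM in mesenchymal and 43.9 ± 17.8 in hematopoietic samples), a B cell factor also made by marrow stroma, Runx2 (508 ± 149 CPM in mesenchymal and 95.4 ± 26.5 in hematopoietic samples) and Foxc1 (4.05, SE 0.27) were mesenchymal. Ikzf1 (-8.14, SE 0.30) and Cebpb (-1.53, SE 0.16) were hematopoietic. Cell cycle genes were mostly unplaced (24 of 29 tested), as were 68.5% of all genes. Without the 2-fold margin, 18 of the 29 were higher in hematopoietic and 5 in mesenchymal samples by edgeR's quasi-likelihood test, against 38.6 and 33.7% of all genes. The replication genes Mcm3 (-1.38, SE 0.22) and Mcm6 (-1.31, SE 0.18) were placed on the hematopoietic side by a small margin, and neither was placed with RLE or upper quartile scaling, with DESeq2 or in either prefix group alone. Mki67, a gene of dividing cells, was unplaced at 772 ± 121 CPM in hematopoietic and 316 ± 111.9 in mesenchymal samples (adjusted p beyond 2-fold = 0.0773), while Ccnd2, a cyclin gene (3.17, SE 0.21), and the cell cycle inhibitors Cdkn2a (3.18, SE 0.43) and Cdkn2b (2.98, SE 0.43) were mesenchymal.

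The difference between the populations was then compared with that of the wild type cultures by the interaction of genotype and population over all 24 samples. The stromal marker level of hematopoietic samples was 9.57 ± 4.78% in wild type and 11.2 ± 6.62% in knock-in samples, and the leukocyte marker level of mesenchymal samples 0.441 ± 0.120% and 0.636 ± 0.381%; their part in these differences was not tested. The interaction was called for 1121 of 15389 genes (7.28%), and for 26 of 237 axis genes tested (10.97%). Levels in this comparison are scaled over all 24 samples and can differ slightly from those above. The ligand genes Csf1 and Tnfsf11 were not called. For Csf1 the log2 difference was 3.76 in wild type against 3.58 in knock-in samples (interaction -0.18, SE 0.22, adjusted p = 0.737). For Tnfsf11 it was 3.60 against 2.88 (interaction -0.79, SE 0.48, adjusted p = 0.405). Sh3bp2 was not called either (interaction -0.11, SE 0.15, adjusted p = 0.789). Il34, the scarce other CSF1R ligand gene, was called toward the hematopoietic side (interaction -2.04).

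For several axis genes the difference between the populations was of another size in the knock-in. Met, the HGF receptor gene, was at 12.6 ± 5.61 CPM in wild type and 125 ± 46.1 in knock-in hematopoietic samples, with 8.91 ± 1.74 and 9.79 ± 2.20 in the mesenchymal samples (interaction -3.20, SE 0.37, adjusted p = 1.88e-05). Vegfc, a lymphatic growth factor, was at 4.05 ± 1.79 and 49.0 ± 33.8 CPM in the hematopoietic and 35.8 ± 21.4 and 17.9 ± 3.91 CPM in the mesenchymal samples of wild type and knock-in, so its log2 difference went from 3.11 to -1.42 (interaction -4.53, SE 0.51, adjusted p = 1.57e-05). In the knock-in alone Vegfc was unplaced, and hematopoietic with the culture name as a block (-1.76). Itga2 (0.83 to -2.74) and Itgb3, a chain of the osteoclast integrin (1.14 to -1.12), moved toward the hematopoietic side as well, with interactions of -3.60 and -2.27. The chemokine gene Ccl9 did so with a difference of -1.02 in wild type and -3.55 in the knock-in (-2.53, adjusted p = 1.47e-04). Il1rn was less mesenchymal in the knock-in (4.26 to 2.26, interaction -2.01), with 521 ± 140.0 CPM in wild type and 123 ± 52.4 in knock-in mesenchymal samples. Nrp1, a co-receptor of VEGF and class 3 semaphorins, moved the other way (-1.16 to 0.58, interaction 1.73, adjusted p = 5.35e-05), and its hematopoietic level was 589 ± 87.6 CPM in wild type and 191 ± 51.5 in the knock-in. Ptprz1, a pleiotrophin receptor gene, was more mesenchymal in the knock-in (1.62 to 3.82, interaction 2.21). Outside the axes, Nfatc1 (-1.34), Src (-2.36), Mmp14 (-1.44) and the V-ATPase genes Atp6v1a (-0.71) and Atp6v1b2 (-0.89) had interactions toward the hematopoietic side. Of the 26 called axis genes 7 had log2 differences of opposite sign in the 2 genotypes.

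**Figure D5:**
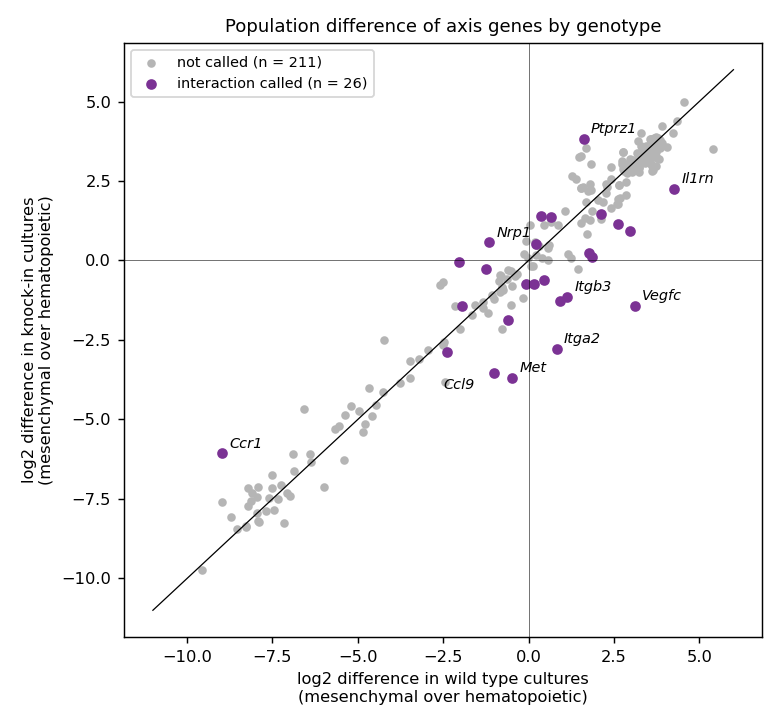
Log2 difference (mesenchymal over hematopoietic) of each tested axis gene in wild type (horizontal) and knock-in (vertical) cultures. Filled points are the 26 genes with a called interaction, grey points the rest, and the line marks equal differences; Met, Vegfc and Itga2 lie farthest below the line.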

How the data were processed

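RNA of 24 sorted samples was depleted of ribosomal RNA and made into stranded paired-end libraries, per the labels' protocols. The deposited values are whole-number read counts per Ensembl gene on GRCm38. Tools named in the submitters' processing notes are HTSeq 0.9.1, DESeq2 1.20.0, MultiQC and FastQC 0.11.7. Neither aligner settings nor the counting's strand option is given in the sources used here, and reads of overlapping genes may be lost: of 1065 listed genes with an identifier, 31 were at 0 in all 24 samples and 16 of these overlap a gene on their own strand. The 12 knock-in samples held 11649782 to 15826711 counts each over 54232 identifiers, of which 54165 matched GENCODE M21, and no replicates were near-identical.

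Genes passing edgeR's filterByExpr (minimum count 10, minimum total 15) were fitted with edgeR 4.0.16 in R 4.3.3 (TMM, robust quasi-likelihood) with population and a 2-valued file-name prefix as terms. What the prefix marks is not given in the sources used here. Sides came from glmTreat against a 2-fold null, with Benjamini-Hochberg adjustment over all genes tested and a threshold of 0.05. By culture name in the file names, 5 pairs of knock-in fractions had deviations from their group means that correlated at 0.19, 0.16, 0.29, 0.18 and 0.29. No correlations of unmatched samples were set beside these, so they do not settle whether the culture name pairs the samples. The main fit and its p-values leave the pairing out. The culture name served as an alternative block, which is given where it changed a call. The interaction with genotype was fitted over all 24 samples. Intervals of count ratios (95%) and the floor of 3 counts cover counting error only. The marker level of a sample is the median, over markers of at least 10 CPM in the marked population, of its CPM divided by the mean there. Exon length is the union of annotated exons. The fits were tested on simulated data. Alternatives were RLE and upper quartile scaling, DESeq2 1.42.0, no filter, no prefix term, each prefix group alone, blocks by replicate number or culture name, all 24 samples and each sample left out.

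The members and lists were chosen with earlier results of these data known. The genes named were drawn from the axis genes, Sh3bp2, Ptprc, Ly6a, the 12 largest differences each way, and per list the 6 largest and 3 smallest differences among genes with 10 CPM or more in the higher population. Some members of the lists are not reported here by name; they remain in the counts and medians.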

Additional observations from a re-analysis of the deposited data

Results flagged for a closer look

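Single samples stood apart by Dixon's test on log2(CPM + 0.1) in 26 of 491 groups of 6 samples of the named genes, where chance flags about 1 in 20 groups, and the stromal marker level of hematopoietic replicate 3 (23.8%) was set apart in the same way. Hematopoietic replicate 6 was high in Ccl9 at 601 CPM (median 191), Cd47 at 297 (median 249), Dcstamp at 55.1 (median 23.8), Cybb at 1684 (median 948) and was low in Il6ra at 111.4 CPM (median 146), Stab1 at 739.9 (median 1499), Ncf1 at 223 (median 309), P2ry12 at 13.6 (median 58.5), Nt5e at 8.55 (median 27.5). Hematopoietic replicate 3 was high in Erbb2 at 5.999 CPM (median 2.94), Egfr at 79.2 (median 49.3) and was low in Nrg4 at 3.04 CPM (median 4.10), Mcm3 at 64.3 (median 92.7). Hematopoietic replicate 5 was low in Rspo2 at 6.78 CPM (median 21.3), Glul at 180.1 (median 244). Hematopoietic replicate 4 was high in Col2a1 at 39.8 CPM (median 2.81) and was low in Robo2 at 0.591 CPM (median 2.74). Mesenchymal replicate 6 was low in Spi1 at 0 CPM (median 0.940), Tnfrsf11a at 0.293 (median 2.43). Hematopoietic replicate 1 was low in Itga2 at 5.66 CPM (median 25.2), Atp6v0d1 at 135 (median 169). Mesenchymal replicate 2 was low in Tyro3 at 12.3 CPM (median 15.4), C1s1 at 8.03 (median 11.04). Mesenchymal replicate 4 was high in Fgfr1 at 279 CPM (median 231) and was low in Masp1 at 27.2 CPM (median 53.4). Hematopoietic replicate 2 was low in Itga3 at 0.944 CPM (median 2.39).

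The difference between the populations was of another size in the knock-in than in wild type, by the genotype and population interaction in edgeR, for 28 of the genes given with values in the text, of which 18 are among the 26 called axis genes, listed with the log2 change of the mesenchymal over hematopoietic ratio. Toward the hematopoietic side in the knock-in were Vegfc (-4.53), Itga2 (-3.60), Met (-3.20), Ccl9 (-2.53), Serpinb8 (-2.38), Src (-2.36), Ncf1 (-2.35), Itgb3 (-2.27), Bmp2 (-2.20) and Il34 (-2.04). Further genes in that direction were Lpl (-2.01), Il1rn (-2.01), Pdgfa (-1.75), Mmp14 (-1.44), Nfatc1 (-1.34), Atp6v1b2 (-0.89), Atp6v1a (-0.71), Itgav (-0.67), Fgfr2 (-0.66) and Tgfbr1 (-0.49). Toward the mesenchymal side were Ccr1 (2.90), Ptprz1 (2.21), Dkk2 (1.99), Nrp1 (1.73), Lsp1 (1.24), Ptger4 (1.09), Axl (1.02) and Bmpr2 (0.31). The stromal marker level of the hematopoietic samples was 11.2 ± 6.62% in knock-in and 9.57 ± 4.78% in wild type cultures, and its part in these differences was not tested.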

How the results depend on the processing

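The 234 named genes placed on a side kept that side under every alternative run, except Ackr3, Acvr2b, Atp6v0d1, Atp6v1h, Axl, Ccl2, Cd47, Cdh5, Col2a1, Cxcl10, Ephb6, Hgf, Itga2, Mcm3, Mcm6, Ptger4 and Robo2, which kept their direction and lost the call in 1 or more of RLE or upper quartile scaling, DESeq2, a single prefix group, no filter, a left-out sample or the culture block. The 13 called interactions whose values were tested again were called under every alternative run. Signs turned only for unplaced genes: Ly6a ranged from -0.0903 to 0.232 with 1 sample left out, below 0 without hematopoietic replicate 6 or mesenchymal replicate 3 or 5, and Pdgfa from -0.0367 to 0.184, below 0 without hematopoietic replicate 6. Dkk2 ranged from -0.201 to 0.176 with 1 sample left out, and was at 0.267 in prefix group 1 alone, 0.122 with upper quartile scaling, 0.0205 with the replicate block and 0.0841 with the culture block, where Acvr2a was at -0.146. Pdgfa was at -0.195 in prefix group 1 alone, Nt5e at 0.0325 in prefix group 2 alone and Tap2 at 0.00667 with upper quartile scaling. Pairs with ligand and receptor both hematopoietic numbered 27 without a filter and 24 in the fit of all 24 samples, against 15. Interactions toward the mesenchymal side numbered 687 with DESeq2 and 276 without a filter, against 450. The stromal and leukocyte marker levels were 19.6 and 17.8% with the mean in place of the median over markers, a mean that includes Vcam1 and Lsp1. With upper quartile scaling, 5699 genes were higher in mesenchymal and 4569 in hematopoietic samples.

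Replicate numbers shared by the populations join the same samples as the culture names only for numbers 1 and 6. Same-numbered deviations correlated at 0.19, -0.09, 0.12, 0.10, 0.08 and 0.29 for numbers 1 to 6. Of 6 hematopoietic samples 1 matched its own number best, so the number was not taken to pair the samples. With the replicate number as a block, 4785 genes were higher in mesenchymal and 5472 in hematopoietic samples, and 2190 and 2322 lay on the sides beyond 2-fold. With the culture name of the file names as a block, these were 4548, 5104, 2200 and 2286; it changed the call of Hgf, Robo2, Mcm6, Lsp1, Vegfc, Acvr1b and Pros1 among the named genes, and the interaction was not fitted with it. Leaving out 1 sample at a time gave 4671 to 4987 genes higher in mesenchymal and 5348 to 5482 higher in hematopoietic samples, and 2137 to 2319 and 2272 to 2398 beyond 2-fold. The same gave 353 to 489 interactions toward the mesenchymal and 563 to 693 toward the hematopoietic side, and 27 to 30 pairs from mesenchymal ligand to hematopoietic receptor, 8 to 10 the other way, 80 to 85 within the mesenchymal and 15 to 22 within the hematopoietic side. Depth limits the cytokines with few counts, for which no side was given.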

Other observations

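Ion channel genes were divided between the populations. Of 25 tested, 13 lay on the hematopoietic side, 6 on the mesenchymal side and 6 were unplaced, against 16.2, 15.3 and 68.5% of all genes. The potassium channel genes Kcnj10 (59.5 ± 15.5 CPM in hematopoietic and 0.249 ± 0.235 in mesenchymal samples), Kcnk13 (-7.58, SE 0.42) and Kcnn4 (-5.93, SE 0.33) were hematopoietic, as was Hvcn1, a proton channel that works beside the phagocyte oxidase (97.7 ± 11.5 CPM in hematopoietic and 0.646 ± 0.228 in mesenchymal samples). Trpm7, a channel with its own kinase domain, was unplaced at 230.2 ± 6.58 and 181 ± 12.1 CPM.

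Of 21 tested antigen presentation genes 16 were hematopoietic and none mesenchymal, against 16.2 and 15.3% of all genes. The costimulator gene Cd86 was at 33.5 ± 8.59 CPM in hematopoietic and 0.0863 ± 0.0723 in mesenchymal samples, and Cd74, the chaperone of class II molecules, at a modest 22.2 ± 8.04 CPM in hematopoietic and 0.393 ± 0.299 in mesenchymal samples. The peptide transporter genes Tap1 (40.4 ± 8.98 and 25.6 ± 7.96 CPM) and Tap2 (32.7 ± 3.62 and 29.3 ± 3.74 CPM) were unplaced. Of 18 tested coagulation and fibrinolysis genes 11 were unplaced, 4 mesenchymal and 3 hematopoietic, against 68.5, 15.3 and 16.2% of all genes. F13a1, the clot-stabilising transglutaminase that macrophages make, was hematopoietic (470.1 ± 158 CPM in hematopoietic and 7.03 ± 7.96 in mesenchymal samples), and F3, which starts coagulation, was mesenchymal (11.1 ± 1.75 CPM in mesenchymal and 1.74 ± 0.745 in hematopoietic samples).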
